A study of Mus musculus with 6 samples.

Results

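A set of 10 genes of the neuronal axon was followed through cultures of mouse cortical neurons: the neurofilament subunit genes Nefl, Nefm, Nefh and Ina, the axon initial segment scaffold genes Ank3 and Sptbn4, the axonal adhesion genes Nfasc, Cntnap1 and Cntnap2, and the kinesin motor gene Kif5a. They were chosen by name, and each of the 10 symbols matched 1 of the 54232 genes listed in every count table. All 10 passed the filter on low counts. RNA was sequenced in 6 libraries of wildtype cortical neurons of CD1 mice, an outbred stock, in 3 groups with a repeat 1 and a repeat 2 in each. The control carries PDL in its library names, PA (a peptide amphiphile) carries IKVAV, a peptide sequence found in laminin, and PA + PS2 carries IKVAV with PEDOT-S, where PEDOT is a conducting polymer. All 6 libraries, those of the control among them, carry a treatment label that reads Peptide amphiphile. The meaning of PS2, the age of the mice, the time in culture and the doses were not stated in the labels. The labels also leave unsaid whether repeats were separate cultures or animals; the p-values thus cover the spread between libraries alone, and that spread may be technical.

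Neurofilaments are the intermediate filaments of neurons. They are co-polymers of a light (Nefl), a medium (Nefm) and a heavy (Nefh) chain with alpha-internexin (Ina), they fill large axons and set their calibre, and in the developing brain Ina appears early while Nefh accumulates late. The axon initial segment is the stretch of axon next to the cell body where action potentials start. Ankyrin-G (Ank3) and beta-IV spectrin (Sptbn4) form its scaffold and hold neurofascin (Nfasc) and voltage-gated sodium and potassium channels in place. At nodes of Ranvier the same scaffold recurs, flanked by paranodes, which contain Caspr (Cntnap1), and juxtaparanodes, which contain Caspr2 (Cntnap2). Kif5a is a neuron-specific heavy chain of kinesin-1, a motor of anterograde transport whose cargoes include neurofilament proteins. The title of the study speaks of neuronal maturation. PA and PA + PS2 were each set against the control, and PA + PS2 against PA.

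Library totals lay between 30714311 and 33923681 counts. Levels are given as CPM, counts per 1000000 counts of a library scaled by the TMM method of edgeR. The 10 genes together took 0.282% to 0.295% of the counts of a library. The neuronal label was checked against markers: 6 neuron markers (Rbfox3, Tubb3, Map2, Snap25, Syt1 and Stmn2) summed to 6370 to 6980 CPM in each library, while 6 astrocyte markers summed to 28.2 to 167.0 CPM and 8 mature oligodendrocyte markers to 45.0 to 108.0 CPM. Some sums of non-neuronal markers set PA + PS2 apart, although the repeats within control and within PA also differed. The 4 microglia markers summed to 2.61 to 4.42 CPM in every library. The 5 oligodendrocyte precursor markers summed to 33.4 and 80.5 CPM in control 1 and 2, 23.7 and 122.0 with PA and 7.91 and 6.30 in PA + PS2, and the 6 cycling progenitor markers to 76.7 and 141.0, 89.7 and 181.0, and 49.5 and 62.7 CPM. With the repeat number as a block (edgeR, adjusted p under 0.05), the markers Cdk1, Cspg4 and Pmp22 fell and Cldn11 rose in PA + PS2 against control, and Cdk1, Cspg4, Pmp22, Gja1, Pdgfrb and Rgs5 fell against PA. In such bulk RNA, fewer cells of a type and less RNA per cell cannot be told apart.

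None of the 10 genes passed the test in any of the 3 comparisons at an adjusted p under 0.05 (edgeR's quasi-likelihood test over 17299 genes, Benjamini-Hochberg adjustment). The background was equally empty: 0.0% of all tested genes passed in PA against control, in PA + PS2 against control and in PA + PS2 against PA. With the repeat number in the model as a block, again none of the 10 passed, where 0.0%, 0.699% and 1.52% of all genes did. DESeq2 and limma-voom also called none of the 10, with or without the block. Some fits with another filter or with fewer libraries called Nefl, Cntnap1 or Sptbn4, and their values stand with those genes and in the closing section. At an unadjusted p under 0.05, 2 of the 10 were lower in PA + PS2 than in the control, Nefl and Cntnap1, against 4.61% of all genes lower at that level and 6.81% in either direction. No member reached it in PA against control, where 0.595% of all genes did, or in PA + PS2 against PA, where 7.7% did. These unadjusted counts come from the fit without the block. With the block 3 of the 10 reached that level in PA + PS2 against control, Nefl and Cntnap1 lower and Nefm higher. Against PA 2 did, Nefm higher (log2 0.211, 95% interval 0.026 to 0.397) and Cntnap2 lower (-0.191, -0.347 to -0.035). In PA against control none did. The share of all genes at that level under the block is not given here.

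**Figure D1:**
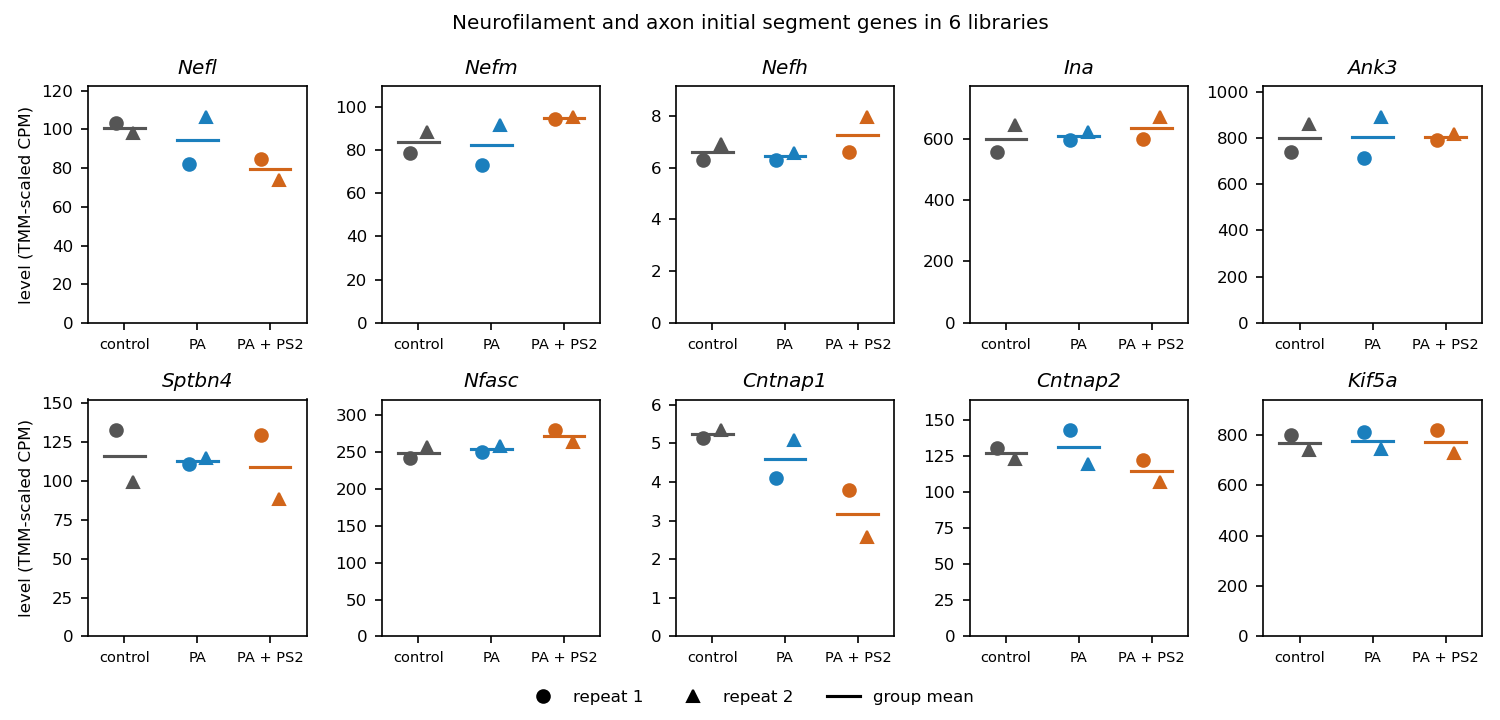
Level of each of the 10 genes in TMM-scaled CPM (vertical axes, each from 0) in the 3 groups (horizontal axes). Circles are repeat 1, triangles repeat 2 and bars group means. Nefl and Cntnap1 lie lower and Nefm higher in both PA + PS2 libraries than in both control libraries, while Kif5a and Ank3 have nearly equal group means.

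Nefl and Nefm, neighbours on chromosome 14, lay on opposite sides of the control in PA + PS2, though neither passed the test. Nefl (chromosome 14, 68083863 to 68089095, plus strand, GRCm38), the chain on which the filament core is built, was at 104 and 98.1 CPM in the control, 82.3 and 106.5 with PA and 84.8 and 74.0 with PA + PS2. Both PA + PS2 libraries lay below both controls, and PA spanned the range from below PA + PS2 1 to above both controls. The mean was 79.4 ± 7.67 CPM in PA + PS2 (SD, n = 2) and 100.8 ± 3.91 in the control. The log2 fold change was -0.34 with a standard error of 0.13 (95% interval -0.64 to -0.05; edgeR quasi-likelihood test, Benjamini-Hochberg adjusted p = 0.675), with -0.29 within repeat 1 and -0.41 within repeat 2. Nefl passed the edgeR test without a filter on low counts (adjusted p = 0.0254, where 1.36% of all genes passed) and with the block when PA was left out of the fit (adjusted p = 0.00298, where 4.21% of all genes passed). With the block it also passed without PA 1 (adjusted p = 0.000998, 4.73% of all genes), without PA 2 (0.00128, 4.47%) and without PA + PS2 1 (0.0272, 5.13%), while without PA + PS2 2 its log2 fold change was -0.18 (edgeR adjusted p = 0.926). Against PA the log2 fold change was -0.25 ± 0.13 (SE; adjusted p = 0.757), with 0.04 within repeat 1 and -0.53 within repeat 2, and with the block it was -0.49 without PA 1 (adjusted p = 0.000272, where 5.46% of all genes passed) and 0.02 without PA 2 (adjusted p = 1.00).

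Nefm (chromosome 14, 68082590 to 68124846, minus strand), the medium chain, was at 78.6 and 88.5 CPM in the control, 73.2 and 91.7 with PA and 94.5 and 95.3 with PA + PS2. Both PA + PS2 libraries were above the other 4. The log2 fold change against the control was 0.18 ± 0.12 (SE; 95% interval -0.08 to 0.45; edgeR adjusted p = 0.884), and the test was not passed. The repeats gave 0.27 and 0.11.

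Because Nefl and Nefm are read in the same library, their ratio does not depend on how libraries are scaled. Nefl counts divided by Nefm counts gave 1.32 and 1.11 in the control, 1.12 and 1.16 with PA and 0.898 and 0.776 with PA + PS2. Nefl exceeded Nefm in all 4 libraries without PS2 and was exceeded by it in both libraries with PS2. Between PA + PS2 and control the log2 ratio differed by -0.53, a 0.691-fold ratio, with -0.55 within repeat 1 and -0.51 within repeat 2. Against PA the difference was -0.45, with -0.32 and -0.58 within the repeats. This ratio was picked after its values were seen, and an exact two-sided permutation test of 2 libraries against 2 cannot give less than p = 0.333, the value it gave in both comparisons. As a share of the counts of both genes, Nefl took 56.9% and 52.6% in the control, 52.9% and 53.7% with PA, and 47.3% (95% Wilson interval 46.0 to 48.6, counting error only) and 43.7% (42.4 to 45.0) with PA + PS2.

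**Figure D2:**
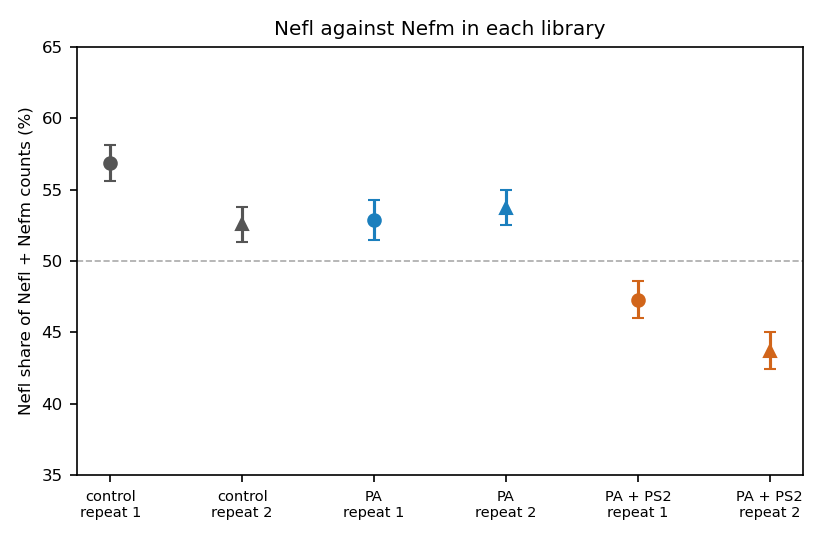
Nefl counts as a percentage of Nefl plus Nefm counts (vertical axis, 35 to 65%) in each of the 6 libraries. Bars are 95% Wilson intervals for counting error, circles are repeat 1 and triangles repeat 2; the dashed line marks equal counts. Both PA + PS2 libraries (47.3% and 43.7%) lie below the line and the other 4 (52.6% to 56.9%) above it.

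The annotation of these neighbours bears on how far their counts can be told apart. In GENCODE M21 the genes lie on opposite strands, and Nefm has 2 annotated transcripts. The transcript Nefm-201 ends before Nefl, while Nefm-202 runs on and places its last exon over the start of Nefl. The shared exonic stretch covers 1108 bases (chromosome 14, 68083863 to 68084970), which is 96.6% of the 1147 bases of Nefl exon 1, 32.8% of all Nefl exon bases and 19.2% of the Nefm exon bases. Of these, 147 bases (chr14:68084824-68084970) are translated in Nefl and, read from the other strand, make up the end of the Nefm-202 reading frame. It is the only stretch that lies in the reading frames of both genes, and 144 of its bases are translated in both. The stretch is printed as each transcript reads it, 5′ to 3′, from the GENCODE M21 transcripts. Capitals mark the Nefm-202 stop codon, which appears as its reverse complement in the Nefl line.
Nefl: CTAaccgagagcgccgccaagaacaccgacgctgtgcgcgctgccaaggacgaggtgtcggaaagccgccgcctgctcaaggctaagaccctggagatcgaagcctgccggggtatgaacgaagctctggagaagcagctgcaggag
Nefm: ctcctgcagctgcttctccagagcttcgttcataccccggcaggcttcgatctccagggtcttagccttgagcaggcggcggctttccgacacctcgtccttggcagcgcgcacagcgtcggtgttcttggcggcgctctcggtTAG
The labels state neither whether reads were counted by strand nor which annotation release was used. Reads from these 1108 bases therefore cannot be assigned to either gene from the deposited counts, and their part in the opposite differences of Nefl and Nefm was not tested.

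**Figure D3:**
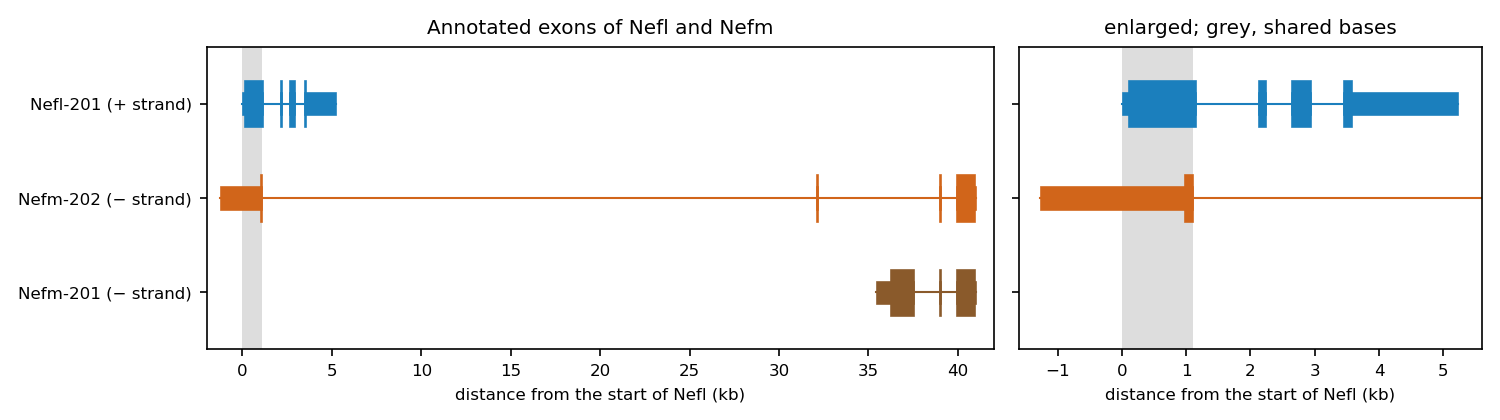
Annotated exons of Nefl (1 transcript, plus strand) and Nefm (2 transcripts, minus strand) by distance in kb from the start of Nefl. Thick boxes are coding, thinner boxes are untranslated exon parts and lines are introns; grey marks the 1108 exonic bases shared by Nefl and Nefm-202, and the right panel enlarges that end.

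Nefh and Ina, the late and the early filament gene of development, had small fold changes that did not pass the test. Nefh (chromosome 11, 4938754 to 4948064), the heavy chain, was at 6.29 and 6.91 CPM in the control, 6.30 and 6.57 with PA and 6.60 and 7.96 with PA + PS2, from 195 to 245 counts a library. PA + PS2 2 was the highest library, and PA + PS2 overlapped the control while lying above PA. Between PA + PS2 and control the log2 fold change was 0.14 ± 0.20 (SE; 95% interval -0.32 to 0.61; edgeR adjusted p = 0.984). At this depth a rise of up to 1.52-fold or a drop to 0.799-fold lies within the interval.

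Ina (chromosome 19, 47014698 to 47025327), alpha-internexin, was at 556 and 643 CPM in the control, 596 and 623 with PA and 597 and 670 with PA + PS2. The groups overlapped in all 3 comparisons, and the log2 fold changes were 0.02 (PA against control), 0.08 (PA + PS2 against control) and 0.06 (PA + PS2 against PA), with standard errors of 0.095. The 95% interval of PA + PS2 against control ran from 0.910-fold to 1.23-fold. The ratio of Nefh to Ina counts was 0.0113 and 0.0107 in the control, 0.0106 and 0.0105 with PA and 0.0110 and 0.0119 with PA + PS2. On the log2 scale the Nefh to Ina ratio of PA + PS2 differed from the control by 0.06, with -0.03 within repeat 1 and 0.14 within repeat 2, so the repeats disagreed in sign. The Nefh to Nefl ratio was higher in both PA + PS2 libraries (0.0778 and 0.108) than in both controls (0.0607 and 0.0705), a log2 difference of 0.48. With PA it was 0.0765 and 0.06165, so PA 1 lay above both controls and close to PA + PS2 1. Against PA the log2 difference of PA + PS2 was 0.02 within repeat 1 and 0.80 within repeat 2. The exact two-sided permutation test gave p = 0.333 in both comparisons, the smallest it can give.

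Levels of different genes were compared per length, as TPM, counts per annotated exon base scaled to 1000000 in each library. Among the 4 filament genes Ina dominated in every library, with 78.9% to 83.7% of their summed TPM. Nefl took 14.1% and 11.9% in the control, 10.9% and 13.1% with PA and 11.0% and 8.85% with PA + PS2. The group means of Nefm were 6.26%, 6.13% and 6.93% and those of Nefh 0.716%, 0.695% and 0.766%, in the same order. With the bases shared with other genes left out of the lengths, Nefl took 16.0%, 14.8% and 12.3% and Ina 77.0%, 78.3% and 79.9%. Ina itself shares 456 exonic bases with Nt5c2 on the other strand. The share of Nefm depends on the length used. Its 2 transcripts cover 5782 exonic bases, and the longest of them has 3680. With the longest transcript as length, control means were 616.6 TPM for Ina, 99.4 for Nefl and 75.64 for Nefm. The shares were not computed on that length.

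In the control the order of TPM was Ina (803 ± 79.1, SD, n = 2), Kif5a (498 in control 1 and 459 in control 2), Nefl (129 ± 5.64), Ank3 (99.6 ± 10.2), Nfasc (76.4 ± 3.06), Nefm (62.7 ± 4.94), Cntnap2 (53.9 ± 2.52), Sptbn4 (52.6 ± 10.9), Nefh (7.17 ± 0.445) and Cntnap1 (3.86 ± 0.0899). Ina, Kif5a and Nefl stood clear of each other, and so did Nefh and Cntnap1 at the bottom. Sptbn4 did not differ from Nefm or Cntnap2 beyond its spread, since it was above both in control 1 and below both in control 2. Nefm was above Cntnap2 in both controls, at 59.2 and 66.2 TPM against 55.6 and 52.1. The order of Nfasc and Nefm depends on the length. With the shared bases left out of the lengths but all counts kept, Nefm was at 73.3 and 81.9 TPM in the controls and Nfasc at 74.3 and 78.6. Reads from the shared bases may be among the Nefm counts. The place of Ank3 depends on the length: its 47 annotated transcripts cover 34838 exonic bases, the longest of them only 9963, and with the longest transcript as length Ank3 was at 267 TPM in the control, above Nefl at 99.4.

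**Figure D4:**
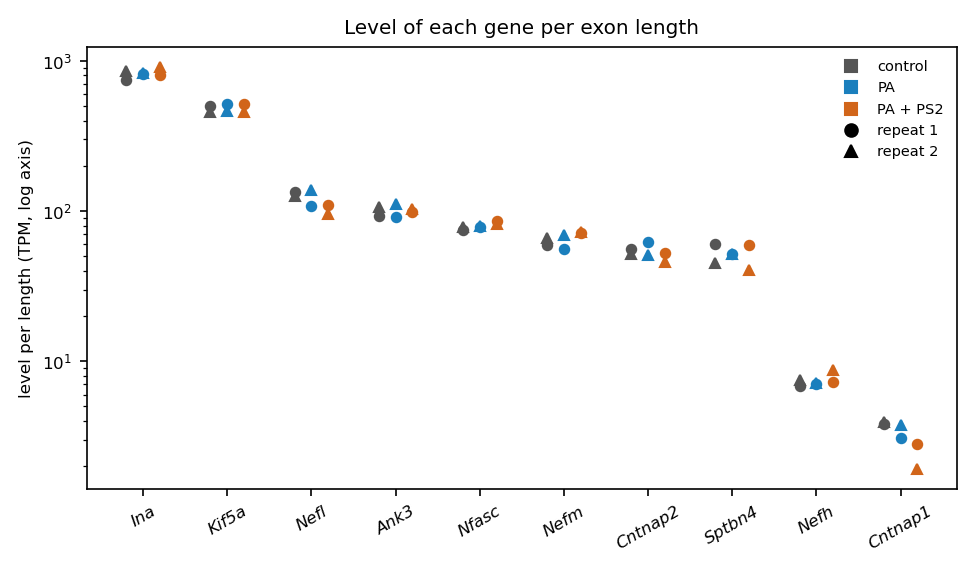
Level of each gene per exon length (TPM, log axis) in the 6 libraries, ordered by the control mean. Colours are groups, circles repeat 1 and triangles repeat 2; the genes span from Ina (803 TPM in the control) to Cntnap1 (3.86 TPM), and Ina and Kif5a are highest and Nefh and Cntnap1 lowest in every library.

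The initial segment scaffold genes had group means close to each other, while their repeats lay apart. Ank3 (chromosome 10, 69398773 to 70027438), which anchors channels and neurofascin to the membrane skeleton, was at 739 and 860 CPM in the control, 714 and 891 with PA and 791 and 818 with PA + PS2. Repeat 2 was above repeat 1 in each group, and the groups overlapped. Group means were 799.8, 802.7 and 804.4 CPM, and the log2 fold changes were 0.01 for PA + PS2 against control (95% interval -0.26 to 0.28) and 0.01 for PA against control (-0.27 to 0.28).

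Sptbn4 (chromosome 7, 27356383 to 27447686), the spectrin that links ankyrin-G to actin, was at 132 and 99.1 CPM in the control, 111 and 114 with PA and 129 and 88.6 with PA + PS2. Its repeats lay further apart than its groups: repeat 2 was lower by 0.42 (log2) in the control and by 0.55 in PA + PS2, and higher by 0.05 in PA. In PA + PS2 against control it had a log2 fold change of -0.09 ± 0.21 (SE; edgeR adjusted p = 0.996). The interval ran from 0.666-fold to 1.33-fold.

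Of 23 other genes of the ankyrin and spectrin scaffold, listed by function, none passed edgeR's test without the block in any comparison. With the block 1 passed, against both the control and PA: Actn1, an actin cross-linker that is not restricted to neurons. Actn1 fell from 69.3 and 66.0 CPM in the control to 56.1 and 43.3 in PA + PS2 (edgeR with block, log2 -0.46 ± 0.09, SE, adjusted p = 0.0474). Ank2, Sptan1 and Sptbn1, the most abundant members, were at 1348 to 1661, 1870 to 2057 and 1211 to 1405 CPM over the 6 libraries. The list had a median log2 fold change of 0.02 in PA + PS2 against control, where all tested genes had 0.01.

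Among 21 channel genes of the initial segment and node, none passed with or without the block. The sodium channel gene Scn2a was at 255 and 267 CPM in the control and 250 and 228 in PA + PS2, and Scn3b, a sodium channel beta subunit, at 199 and 197 against 217 and 245. Scn3b was higher in both PA + PS2 libraries than in the other 4 (log2 0.22 against control, edgeR adjusted p = 0.675). In PA + PS2 against control 4 of the 21 lay above and 7 below the control without overlap, where 16.6% of all genes lay above and 17.1% below.

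**Figure D5:**
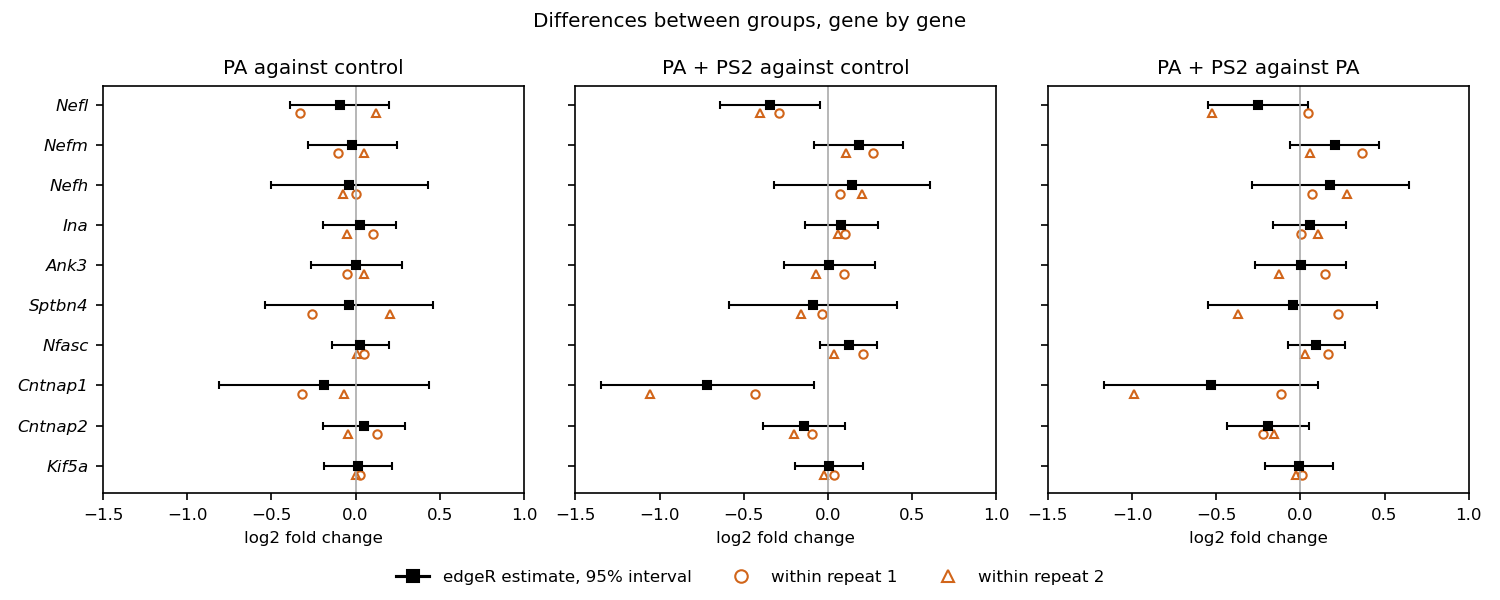
Log2 fold change (horizontal axes) of each gene in the 3 comparisons. Squares with bars are edgeR estimates with 95% intervals from the fit without the block, open circles and triangles are the differences within repeat 1 and repeat 2. In PA + PS2 against control the intervals of Nefl (-0.64 to -0.05) and Cntnap1 (-1.35 to -0.08) lie below 0 before adjustment for 17299 genes; all other intervals include 0.

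In PA + PS2 the adhesion genes lay on both sides of the control, and none passed the test. Nfasc (chromosome 1, 132564690 to 132741797), neurofascin, was at 241 and 257 CPM in the control, 249 and 258 with PA and 279 and 263 with PA + PS2. Both PA + PS2 libraries were above the other 4, by a small margin in repeat 2. The log2 fold change against control was 0.12 ± 0.07 (SE; 95% interval 0.968-fold to 1.22-fold; edgeR adjusted p = 0.863), with 0.21 within repeat 1 and 0.03 within repeat 2.

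Nfasc is also expressed by oligodendrocytes, in a shorter protein form, and the counts here are summed over its 10 annotated transcripts. The 8 mature oligodendrocyte markers summed to 45.0 and 45.3 CPM in the control, 58.4 and 48.6 with PA and 74.7 and 108.0 with PA + PS2. Mag, a myelin-associated glycoprotein, was at 0 and 0.387 CPM in the control and 2.87 and 5.13 in PA + PS2. Of the 8 markers 5 were higher in PA + PS2 than in the control without overlap, where 16.6% of all genes were. Mog, Cnp and Ermn overlapped the control, with means of 10.4, 10.7 and 0.467 CPM in PA + PS2 against 9.41, 8.47 and 0.521. The part of oligodendrocyte RNA in the Nfasc level was not tested.

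Cntnap1 (chromosome 11, 101170523 to 101190724), the paranodal protein Caspr, was at 5.12 and 5.33 CPM in the control, 4.10 and 5.08 with PA and 3.79 and 2.57 with PA + PS2. Both PA + PS2 libraries were below the other 4. The counts behind these values were 172 and 179, 127 and 161, and 119 and 79. The log2 fold change of PA + PS2 against control was -0.72 ± 0.28 (SE; 95% interval -1.35 to -0.08; edgeR quasi-likelihood test, Benjamini-Hochberg adjusted p = 0.681), with -0.43 within repeat 1 and -1.06 within repeat 2. With the block it was -1.12 without PA + PS2 1 and -0.37 without PA + PS2 2, each with 1 PA + PS2 library left. Both PA libraries also lay below both controls (log2 -0.19 ± 0.27, adjusted p = 1.00). Cntnap1 shares 233 exonic bases, 3.97% of its length, with Plekhh3 on the other strand.

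Cntnap2 (chromosome 6, 45059357 to 47304213), the juxtaparanodal protein Caspr2, which holds Kv1 potassium channels, was at 131 and 123 CPM in the control, 143 and 120 with PA and 123 and 107 with PA + PS2. PA + PS2 lay just below the control in both libraries and overlapped PA. Against control the log2 fold change was -0.14 ± 0.11 (SE; edgeR adjusted p = 0.922), and against PA it was -0.19 ± 0.11 (adjusted p = 0.789), with -0.22 and -0.16 within the repeats.

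Over the members, the groups did not overlap for 5 of the 10 in PA + PS2 against control (Nefm and Nfasc higher, Nefl, Cntnap1 and Cntnap2 lower), where 33.6% of all genes did not overlap, 16.6% higher and 17.1% lower. For PA + PS2 against PA it was 4 of 10 (Nefm, Nefh and Nfasc higher, Cntnap1 lower) beside 35.2% of all genes, 16.7% higher and 18.4% lower. For PA against control it was 1 of 10 (Cntnap1, lower) beside 21.8%, 12.1% higher and 9.69% lower. The median log2 fold change of the 10 was -0.01, 0.01 and -0.00 in PA against control, PA + PS2 against control and PA + PS2 against PA, beside 0.01, 0.01 and 0.00 over all genes. Each pair of these comparisons shares the libraries of a group.

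The 23 paranodal, juxtaparanodal and adhesion partners included 2 genes that passed edgeR's test with the block, both in PA + PS2 against PA, and none without it. Cntn2, the axonal glycoprotein TAG-1 that binds Caspr2 at juxtaparanodes, rose from 148 and 151 CPM in PA to 188 and 259 in PA + PS2 (edgeR with block, log2 0.56 ± 0.10, SE, adjusted p = 0.0180). In the control Cntn2 was at 139 and 180 CPM, and against it the block gave adjusted p = 0.0513. Lgi2, a secreted epilepsy-linked protein, fell from 196 and 159 to 165 and 119 CPM (log2 -0.33 ± 0.07, adjusted p = 0.0372), although its groups overlapped across repeats. The ankyrin-binding adhesion gene L1cam (688 to 815 CPM over the 6 libraries), its relative Chl1 (1097 to 1331) and the postsynaptic scaffold gene Dlg4 (435 to 520) did not pass.

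Kif5a (chromosome 10, 127225696 to 127263348) was at 799 and 741 CPM in the control, 813 and 743 with PA and 818 and 729 with PA + PS2. Repeat 2 was below repeat 1 in each group, by 0.11 to 0.17 on the log2 scale, and the groups overlapped entirely. Log2 fold changes were 0.02, 0.01 and -0.01 in the 3 comparisons with standard errors of 0.09, and the 95% interval for PA + PS2 against control ran from 0.873-fold to 1.16-fold. The other kinesin-1 heavy chain genes are the ubiquitous Kif5b and the neuronal Kif5c. Per length, Kif5a made up 31.4% ± 2.10 of the summed TPM of the 3 in the control (SD, n = 2), 32.2% ± 1.51 with PA and 31.8% ± 2.82 in PA + PS2, and Kif5c 60.2%, 59.1% and 60.0%. By counts the Kif5a share was 32.1% and 29.1% in the control, 32.4% and 30.3% with PA, and 33.0% and 29.0% with PA + PS2, so repeats differed by more than groups.

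None of 29 kinesin and axonal transport genes passed in any comparison, with or without the block. Kif1a, a vesicle motor, was at 2023 and 2162 CPM in the control and 2045 and 1887 in PA + PS2, Kif5c at 1462 and 1560 against 1454 and 1535, and Kif1b at 1328 and 1578 against 1354 and 1433. The median log2 fold change of the list was 0.00 in PA + PS2 against control. The same held for 18 neurofilament partner and turnover genes, of which none passed. Map1b, a microtubule protein of growing axons, was at 5040 and 6490 CPM in the control and 6143 and 6304 in PA + PS2, Mapt, the axonal protein tau, at 2969 and 3129 against 3239 and 3261, and Map2, a dendritic microtubule protein, at 2192 and 2441 against 2261 and 2260.

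Of 9 intermediate filament genes outside the neurofilament set, 8 were tested. None passed without the block in edgeR, and with it Nes, the filament of neural progenitors, fell in PA + PS2 against the control and Nes and Vim fell against PA. Nes was at 38.0 and 76.6 CPM in the control, 43.5 and 87.4 with PA and 20.2 and 25.3 with PA + PS2 (edgeR with block against control, log2 -1.26 ± 0.17, SE, adjusted p = 0.0303). Vim, a filament of progenitors, glia and mesenchyme, was at 164 and 222, 191 and 215, and 144 and 145 CPM (against PA, adjusted p = 0.0250 with block). Lmnb1, a nuclear lamin, was at 104 to 126 CPM over the 6 libraries. Prph, a filament gene of peripheral neurons, was at 1.76 to 3.66 CPM in all libraries. The progenitor and precursor marker sums given above lay lower in PA + PS2 as well, and their part in the Nes and Vim levels was not tested.

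For several members the repeats had the same order in every group. Nefm, Nefh, Ina and Ank3 were higher in repeat 2 than in repeat 1 in all 3 groups, where 19.9% of all tested genes were, and Cntnap2 and Kif5a were lower in repeat 2 in all 3 groups, where 19.9% of all genes were. Nefl, Sptbn4, Nfasc and Cntnap1 had no common order. The gap of Nefl between repeats was 0.37 (log2) in PA and -0.08 and -0.20 in control and PA + PS2, so PA 1 (82.3 CPM) lay near the PA + PS2 libraries and PA 2 (106.5 CPM) near the controls.

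Of the 10767 other genes with a mean of at least 5 CPM, those whose profile over the 6 libraries was most like the mean centred log2 CPM of the 4 filament genes were Cyp20a1 (Pearson r = 0.984), Znhit2 (0.981) and Acaa2 (0.979). For Kif5a they were Mfsd10, Kndc1 and Arglu1, each with r = 0.998. Kndc1 was at 41.8 and 29.5 CPM in the control, 44.0 and 29.6 with PA and 47.3 and 26.4 with PA + PS2, a gap between repeats in every group. These are descriptions over 6 libraries that share their repeat difference.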

How the data were processed

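The deposited files hold raw counts per Ensembl gene, with 1 library per file, per the file headers; all values are whole numbers. The submitters' processing notes list HTSeq 2.0.2, STAR 2.7.5, cutadapt 4.2 and DESeq2 1.14.1, and the build mm10, with no settings and no word on strand. The labels' protocols give an RNeasy micro kit for the RNA and a TruSeq Total RNA kit for the libraries. Symbols, coordinates and exon lengths come from GENCODE M21 (GRCm38).

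Testing used edgeR 4.0.16 under R 4.3.3: TMM scaling, filterByExpr and a robust quasi-likelihood fit of group to the 6 libraries, which leaves 3 residual degrees of freedom. Alternatives were limma 3.58.1 (voom), DESeq2 1.42.0, other scalings and filters, the repeat number as a block, and each library left out. Intervals use the t distribution of the test, and the code was tested on simulated data. The deviations of repeats correlated between groups at 0.346, 0.361 and 0.213, so the numbers may mark pairs, which the labels do not state. The main fit leaves the repeat number out, and the block, with 2 residual degrees of freedom, is an alternative to it. The biological coefficient of variation fell from 16.7% to 9.57% under the block.

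The rule for naming companion genes takes from every list those past the test, with or without the block, and the 3 of highest mean CPM. For the marker lists the part on mean CPM was mostly left out of the text. Mag and Prph were added after their values were seen. Some genes that this rule names are not reported here. The members and lists were chosen with earlier results of these data known, and the Nefl to Nefm ratio after its values were seen.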

Additional observations from a re-analysis of the deposited data

How the results depend on the processing

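The replicate block changed no call among the 10 genes over all 6 libraries; with it the log2 fold change of Nefl in PA + PS2 against control was -0.34 (edgeR adjusted p = 0.320). Over all genes the edgeR count of calls rose under the block from 0 to 121 in PA + PS2 against control and to 263 against PA. DESeq2 gave 130 and 200 (279 and 364 with the block), limma-voom 0 and 0 (121 and 258 with the block), and edgeR without a filter 425 and 501. Of 390 values of the 10 genes under 13 settings that kept every library of the groups compared, 377 kept direction and side of the threshold. The member count in PA + PS2 against control became 1 (Nefl) without a filter and 1 (Nefl) under the block with only these groups fitted, where 705 of 16750 genes passed. Over libraries left out, with and without the block, the count ran from 0 to 2 in PA + PS2 against control and from 0 to 2 against PA. All calls with a library left out came under the block, in fits that leave 1 library in a group. Nefl was called against control without PA 1, PA 2 or PA + PS2 1, and Cntnap1 without PA + PS2 1. Against PA, Nefl and Sptbn4 (-0.334) were called without PA 1. Those fits called more genes over the whole table than the block over all 6 libraries did. Without PA 1 or PA 2, the difference of PA + PS2 from control rests on the same libraries as the fit with only these groups. Without PA + PS2 2, in a fit that called few genes against control, Nefl was at -0.181 and Cntnap1 at -0.374, and neither was called. The cause was not tested.

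The sign of near-zero differences turned. For Ank3 in PA against control the log2 fold change was -0.0015 with RLE size factors and in DESeq2, -0.00529 without a filter, -0.00456 with at least 50 counts in 2 libraries, -0.00514 under the block with RLE and in DESeq2, and -0.003 under the block with only those groups. In PA + PS2 against control it was -0.000348 for Ank3 and -0.0014 for Kif5a with at least 50 counts, and -0.000737 for Kif5a under the block with only those groups. For Ank3 against PA it was -0.00306 with library totals alone. With 1 library left out, with or without the block, the log2 fold change in PA against control ran from -0.371 to 0.145 (Nefl), -0.204 to 0.132 (Nefm), -0.11 to 0.0267 (Nefh), -0.0786 to 0.126 (Ina), -0.175 to 0.153 (Ank3), -0.301 to 0.236 (Sptbn4), -0.0269 to 0.0763 (Nfasc), -0.48 to 0.0672 (Cntnap1), -0.0892 to 0.16 (Cntnap2) and -0.0544 to 0.0704 (Kif5a). In PA + PS2 against control it kept its sign for Nefl (-0.528 to -0.181), Nefm (0.0626 to 0.302), Nfasc (0.0374 to 0.199), Cntnap1 (-1.12 to -0.374) and Cntnap2 (-0.249 to -0.0523), and it ran from -0.00108 to 0.266 (Nefh), -0.0221 to 0.189 (Ina), -0.104 to 0.121 (Ank3), -0.39 to 0.159 (Sptbn4) and -0.0837 to 0.0866 (Kif5a). Against PA it ran from -0.493 to 0.0195 (Nefl), -0.0297 to 0.145 (Ina), -0.146 to 0.178 (Ank3), -0.337 to 0.201 (Sptbn4) and -0.087 to 0.0725 (Kif5a). A lone library of a group is assumed to vary like the other groups. In the order of TPM, 6 of 10 genes kept their rank with the longest transcript as length and 6 of 10 without shared bases, by construction of the lengths. With 2 libraries a group, the intervals set the size of difference that can be seen.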
